A study of Homo sapiens with 4 samples.

Results

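Messenger RNA of the genes that encode the LKB1 kinase complex, the AMP-activated protein kinase (AMPK) and the mTOR kinase complexes was read from Illumina bead arrays of 4 human colon cancer cell cultures. The 10 genes are STK11, STRADA, CAB39, PRKAA1, PRKAB1, PRKAG1, MTOR, RPTOR, RICTOR and PRR5L, found by the gene symbol of each probe. They make up 14 of the 27578 probes with 1 gene, and 10 of 18665 genes. The set was chosen by measured values on these same arrays, STK11 for its lower signal with miR-483 and PRR5L for its higher signal in LvM3b than in Ls-Parental, so those differences describe the arrays and have no test.

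The groups were LvM3b cells over-expressing miR-483 (named miR-483-5p in the series title), LvM3b cells over-expressing miR-551a, an LvM3b control culture, and Ls-Parental cells. LvM3b cells, labelled as colon adenocarcinoma, are a metastatic colon cancer line. Ls-Parental is so named in its title and source name, while its cell line label reads LvM3b. The labels do not say how the microRNAs were introduced, whether each line was 1 clone, or what the control culture carried. By its title, the series set out to find genes that the microRNAs suppress in a colon cancer line.

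Each group had 1 array, so no difference below has a replicate check, no p-value was computed, and the number of arrays limits the precision. Each array held 48803 probes, of which 13861 to 14628 were detected at a detection p under 0.01, and the normalized log2 levels of any pair of arrays had a Pearson's r of 0.985 to 0.994 across probes. Of 12 colon epithelium markers, 11 were detected on each LvM3b array, with KRT20 not detected there, and all 12 on the Ls-Parental array. Of 7 fibroblast markers, COL3A1 and LUM were detected on each LvM3b array and 0 on the Ls-Parental array. The other markers of that list, COL1A1, COL1A2, DCN, PDGFRB and THY1, were detected on no array. Summed deposited signals of the 7 markers were 1081.9 with miR-483, 1091.1 with miR-551a, 1194.4 in the LvM3b control and 802.6 in Ls-Parental. The immune (5 with a probe), endothelial (4) and hepatocyte (6) lists had at most 2 markers detected on any array, and PTPRC, CDH5 and ALB were detected on none. The hepatocyte marker SERPINA1 and 1 immune marker were detected on all 4 arrays. The immune marker CD14 was detected in Ls-Parental only, and the endothelial marker PECAM1 with miR-483 only. Fewer cells of a type and less RNA per cell cannot be told apart in such bulk RNA, and the part of other cells in the results was not tested.

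LKB1, the product of STK11, is a serine/threonine kinase and tumour suppressor that works in a complex with the pseudokinase STRAD (STRADA) and the scaffold MO25 (CAB39). It switches on AMPK, a trimer of a catalytic alpha, a scaffolding beta and a nucleotide-binding gamma subunit, when cellular energy is low. AMPK restrains mTORC1, the mTOR complex with raptor (RPTOR) that drives protein synthesis and growth, while mTORC2 holds rictor (RICTOR) and protor subunits and phosphorylates AKT. MicroRNAs pair through their seed with sites in messenger RNAs and lower the level or the translation of those RNAs.

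The mature microRNA of the second LvM3b culture is shown because it defines that culture. It comes from RefSeq (GRCh38.p14, chr1:3560710-3560730, minus strand), is given 5′ to 3′ with the seed, bases 2 to 8, in capitals, and shares that seed with 1 other mature microRNA of the same table, miR-551b-3p. Mature microRNAs were not measured on these arrays.
hsa-miR-551a: gCGACCCAcucuugguuucca

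The promoters of STK11 and PRR5L are shown because these members had the widest spans between arrays by their brightest probes. RefSeq promoter windows of 300 bases, 250 before and 50 after an annotated start, were matched by symbol for 9 of the 10 members, all but STRADA. Capitals mark the letters GGGCGG (the GC box), CCAAT (the CCAAT box) and TATAAA (the TATA box), each searched on both strands. These motifs do not overlap in the windows below, and they were present in 45.0%, 34.6% and 11.5% of all 35116 windows. The STK11 window lies at chr19:1205528-1205827 on the plus strand of GRCh38.p14. PRR5L has 3 annotated starts on the plus strand, at chr11:36296038-36296337, chr11:36375735-36376034 and chr11:36400747-36401046, and the arrays do not tell which start these cells used.
STK11: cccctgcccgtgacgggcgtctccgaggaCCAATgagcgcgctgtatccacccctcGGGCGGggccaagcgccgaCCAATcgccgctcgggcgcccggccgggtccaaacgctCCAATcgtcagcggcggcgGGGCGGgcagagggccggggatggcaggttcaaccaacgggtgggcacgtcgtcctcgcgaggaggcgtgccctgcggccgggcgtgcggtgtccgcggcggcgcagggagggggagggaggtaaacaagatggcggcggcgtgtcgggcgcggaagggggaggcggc
PRR5L, start 1: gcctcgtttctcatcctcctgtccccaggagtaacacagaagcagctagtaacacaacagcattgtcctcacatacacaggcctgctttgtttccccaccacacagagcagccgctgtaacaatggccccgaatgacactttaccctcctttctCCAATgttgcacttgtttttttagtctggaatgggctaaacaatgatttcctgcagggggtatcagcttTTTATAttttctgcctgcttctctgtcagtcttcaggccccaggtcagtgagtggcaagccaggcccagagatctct
PRR5L, start 2: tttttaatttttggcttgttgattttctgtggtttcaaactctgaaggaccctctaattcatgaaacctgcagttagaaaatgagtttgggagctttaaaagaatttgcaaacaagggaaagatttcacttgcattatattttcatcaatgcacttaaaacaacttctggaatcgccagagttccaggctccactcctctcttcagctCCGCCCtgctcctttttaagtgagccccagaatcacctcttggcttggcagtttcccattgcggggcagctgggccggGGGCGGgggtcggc
PRR5L, start 3: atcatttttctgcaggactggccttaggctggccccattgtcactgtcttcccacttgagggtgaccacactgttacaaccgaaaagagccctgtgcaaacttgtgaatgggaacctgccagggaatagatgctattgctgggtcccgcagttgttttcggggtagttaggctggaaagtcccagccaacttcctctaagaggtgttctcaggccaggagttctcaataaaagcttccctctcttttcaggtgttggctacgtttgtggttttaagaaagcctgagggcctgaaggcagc

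The STK11 window was 75.3% G or C with 44 CpG dinucleotides, 2 GC boxes and 3 CCAAT boxes. The PRR5L windows were 49.7%, 46.0% and 50.7% G or C in the order printed, with 3, 6 and 4 CpG dinucleotides. The medians over all windows were 58.7% and 14. Of the other members, CAB39 (72.3% and 78.0% at its 2 starts), PRKAA1 (77.0%), PRKAB1 (67.7%), PRKAG1 (61.7%) and RICTOR (74.0%) had more G or C than that median, MTOR (59.3%) was next to it and RPTOR (48.0%) below it. A match is a run of letters and not a measured binding site.

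Signals below are of 2 kinds. A deposited signal is the probe's brightness on a linear scale as the authors gave it, and a level is the log2 of the signal after background correction and quantile normalization of the 4 arrays together. A fold is the ratio of normalized signals of 1 probe on 2 arrays, and levels of different probes are not compared. Of the 10 members, 8 were detected on all 4 arrays by their brightest probe, RPTOR on 2 arrays and RICTOR on 0. The lowest detected level was 6.15 on the miR-483 array, 6.19 on the miR-551a array, 6.38 on the LvM3b control array and 6.13 on the Ls-Parental array.

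**Figure D1:**
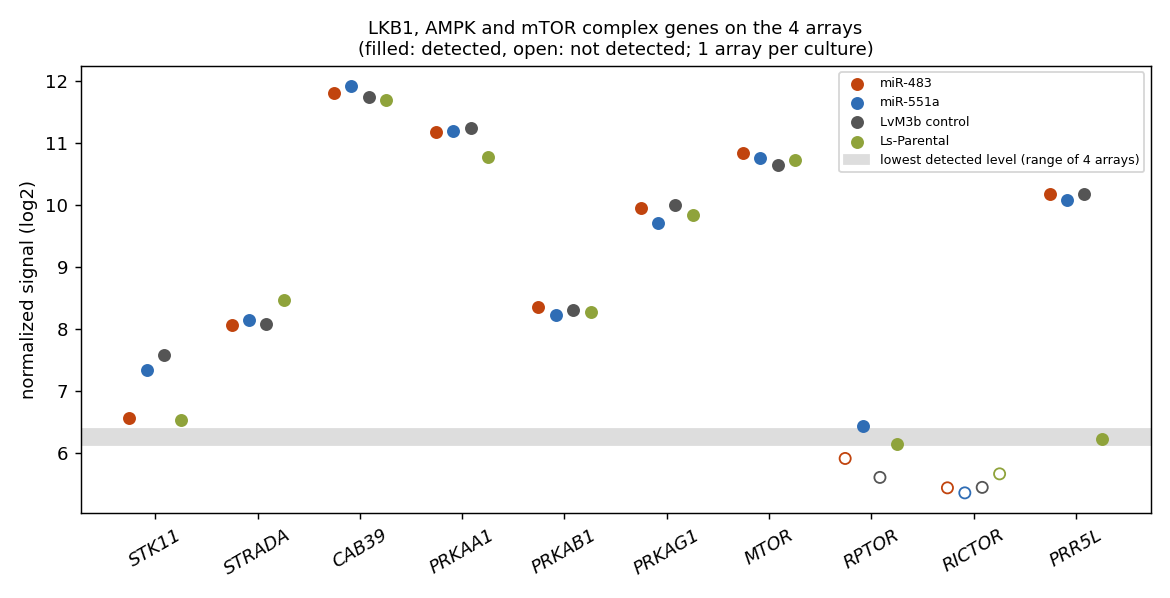
Normalized log2 signal of the brightest probe of each of the 10 genes on the miR-483, miR-551a, LvM3b control and Ls-Parental arrays (1 point per array, filled where detected, open where not; the grey band spans the lowest detected level of the 4 arrays, 6.13 to 6.38). PRR5L sits at 6.22 on the Ls-Parental array and between 10.07 and 10.18 on the LvM3b arrays, and STK11 is highest on the LvM3b control array at 7.57.

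Of the LKB1 complex, the kinase gene STK11 had less signal with miR-483 than in the control culture, while STRADA and CAB39, its partners, were at -0.01 and 0.06 on the log2 scale. The single STK11 probe had a deposited signal of 183.9 with miR-483, 231.9 with miR-551a, 292.7 in the LvM3b control and 169.7 in Ls-Parental. The control array was thus the brightest and the miR-483 and Ls-Parental arrays the dimmest, and those dim arrays were near their lowest detected signals of 159.8 with miR-483 and 148.9 in Ls-Parental.

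STK11 was 2.01-fold lower with miR-483 than in the control (levels 6.57 and 7.57, log2 difference -1.01), the 8th lowest of 9111 genes detected on both arrays. STK11 was chosen for this difference, so the rank is no test. With miR-551a it differed from the control by -0.24, and set directly against miR-551a the miR-483 array was 1.70-fold lower (-0.76). The LvM3b control was 2.06-fold higher than Ls-Parental (1.04), where 169 of 9006 genes detected on both were as far up. The miR-483 and miR-551a arrays stood 0.03 and 0.80 above Ls-Parental. All of the STK11 differences against the control rest on the same control array, whose detection p was the lowest of the 4. Without background correction the miR-483 difference from the control was -0.62, and that from miR-551a was -0.45, within 1.5-fold.

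STRADA, the pseudokinase that binds and activates LKB1, had 3 probes for different transcript accessions. The brightest had deposited signals of 365.8 with miR-483, 350.3 with miR-551a, 376.9 in the LvM3b control and 404 in Ls-Parental. Its log2 differences were -0.01 for miR-483 over the control, 0.08 for miR-551a over the control and -0.39 for the LvM3b control over Ls-Parental. The 2 other STRADA probes were not detected on any array, with signals of 81.3 to 154.

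CAB39, the scaffold of the complex, was bright and nearly level. Its deposited signals were 3941.1 with miR-483, 3832.2 with miR-551a, 3824.1 in the LvM3b control and 3013.4 in Ls-Parental. After normalization its levels ran from 11.70 in Ls-Parental to 11.92 with miR-551a, a span of 0.23. The LvM3b arrays were all brighter than the Ls-Parental array before normalization, and within 0.23 of it after.

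**Figure D2:**
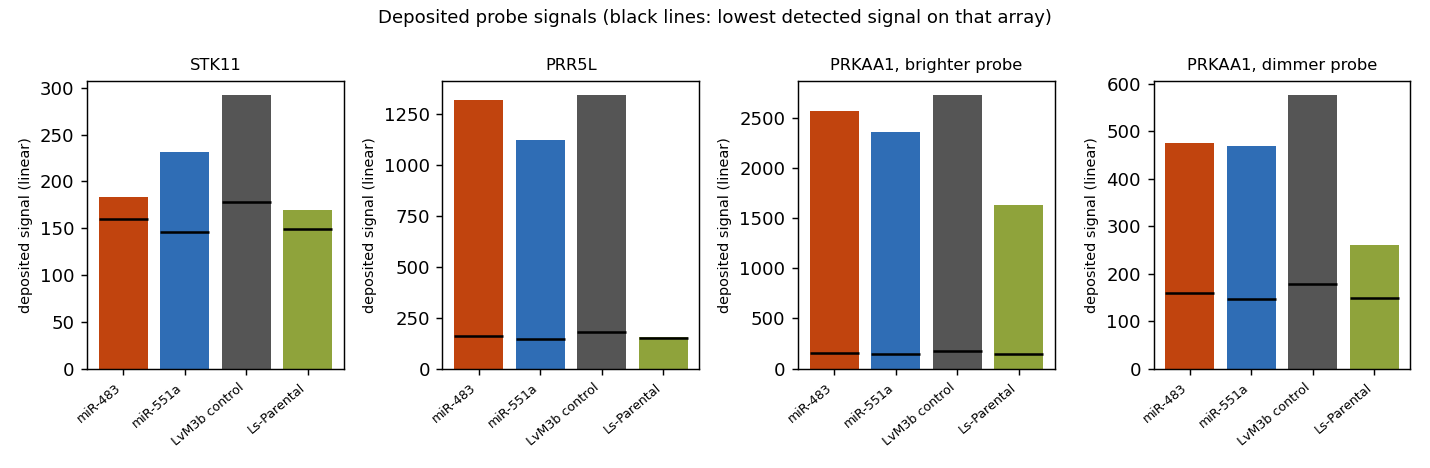
Deposited linear probe signals of STK11, PRR5L and both PRKAA1 probes on the 4 arrays (bars; 1 array per culture, no error available; black lines mark the lowest detected signal of each array, 146.5 to 178.2). STK11 lies close to those lines with miR-483 (183.9) and in Ls-Parental (169.7), and further above them with miR-551a (231.9) and in the LvM3b control (292.7). PRR5L reaches 1123.2 to 1344.5 on the LvM3b arrays against 152.8 in Ls-Parental, and both PRKAA1 probes are lowest in Ls-Parental.

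The AMPK subunits differed little between the LvM3b cultures, and the catalytic subunit was higher in LvM3b than in Ls-Parental by both of its probes. PRKAA1 encodes the alpha 1 catalytic subunit that LKB1 phosphorylates. Its brighter probe had deposited signals of 2575.1 with miR-483, 2358.2 with miR-551a, 2732.9 in the LvM3b control and 1629.2 in Ls-Parental. Its dimmer probe had 476 with miR-483, 468.5 with miR-551a, 577 in the LvM3b control and 259.3 in Ls-Parental. On both probes each LvM3b array was above the Ls-Parental array.

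For the LvM3b control over Ls-Parental, PRKAA1 was 1.38-fold higher by the brighter probe (0.47) and 2.38-fold higher by the dimmer (1.25). By the brighter probe, 806 of 9006 genes detected on both arrays were as high or higher. The probes carry the same transcript accession and give the same direction and different sizes. With their mean, PRKAA1 differed by 0.86, and with the authors' scaled values by 0.62, both past 1.5-fold, which the brighter probe after quantile normalization was not. Against the control, the brighter probe differed by -0.06 with miR-483 and -0.05 with miR-551a. The dimmer probe differed by -0.29 and -0.16 in the same comparisons.

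PRKAB1, the beta 1 subunit that holds the trimer together, had deposited signals of 430 with miR-483, 366.4 with miR-551a, 426.8 in the LvM3b control and 368.6 in Ls-Parental. Its normalized level spanned 0.13 over the 4 arrays, the narrowest span among the members' brightest probes. PRKAG1, the gamma 1 subunit that senses AMP and ATP, had 1145.4 with miR-483, 884.8 with miR-551a, 1192.5 in the LvM3b control and 902.2 in Ls-Parental. It differed from the control by -0.04 with miR-483 and by -0.30 with miR-551a, where 870 of 9112 genes detected on both arrays were as low or lower. Its LvM3b control level was 0.16 above Ls-Parental.

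Of the mTOR complex genes, PRR5L separated the LvM3b cultures from Ls-Parental and the kinase gene MTOR did not. MTOR, the catalytic subunit shared by both complexes, had deposited signals of 2043.9 with miR-483, 1757.7 with miR-551a, 1823.8 in the LvM3b control and 1574.9 in Ls-Parental. MTOR differed from the control by 0.19 with miR-483 and 0.11 with miR-551a. The LvM3b control level of MTOR differed from that of Ls-Parental by -0.08, a value whose sign turned with the authors' scaling and with median scaling.

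PRR5L, a protor subunit of mTORC2, had deposited signals of 1318 with miR-483, 1123.2 with miR-551a, 1344.5 in the LvM3b control and 152.8 in Ls-Parental. Its Ls-Parental detection p was 0.00922, just under the limit, and its signal there lay next to the lowest detected, 148.9. The LvM3b cultures stood together, with differences from the control of 0.00 with miR-483 and -0.10 with miR-551a.

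The LvM3b control was 15.6-fold above Ls-Parental for PRR5L (3.96), where 5 of 9006 genes, itself included, were as high or higher. PRR5L was chosen for its higher signal in LvM3b, so that rank is no test. The miR-483 array was 15.6-fold and the miR-551a array 14.5-fold above the same Ls-Parental array. The size depends on the background taken off the dim Ls-Parental signal: the LvM3b control over Ls-Parental was 8.80-fold in deposited signal and 8.08-fold in the authors' scaled values, and 2.97 on the log2 scale without background correction. The fibroblast markers COL3A1 and LUM were also detected on the LvM3b arrays but, unlike PRR5L, not in Ls-Parental. The other fibroblast markers were detected on no array, and the part of such cells in this difference was not tested. PRR5, the other protor gene, had deposited signals of 1558.6 with miR-483, 1294.5 with miR-551a, 1334.2 in the LvM3b control and 744.9 in Ls-Parental. PRR5 was 0.64 higher in the LvM3b control than in Ls-Parental, and its second detected probe was 0.70 higher.

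RPTOR and RICTOR, the defining subunits of mTORC1 and mTORC2, were at the edge of detection, so their levels are not resolved here. The brighter RPTOR probe had deposited signals of 148.3 with miR-483, 160.1 with miR-551a, 140.3 in the LvM3b control and 149.7 in Ls-Parental. It was detected with miR-551a and in Ls-Parental and not on the other arrays. Its measured difference of 0.83 for miR-551a over the control shrank to at least 1.03-fold once the control's detection limit was used, and was 0.37 without background correction. The second RPTOR probe was not detected on any array. The RICTOR probe was not well above background on any array, with signals of 129.2 with miR-483, 115.1 with miR-551a, 133.7 in the LvM3b control and 129 in Ls-Parental.

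**Figure D3:**
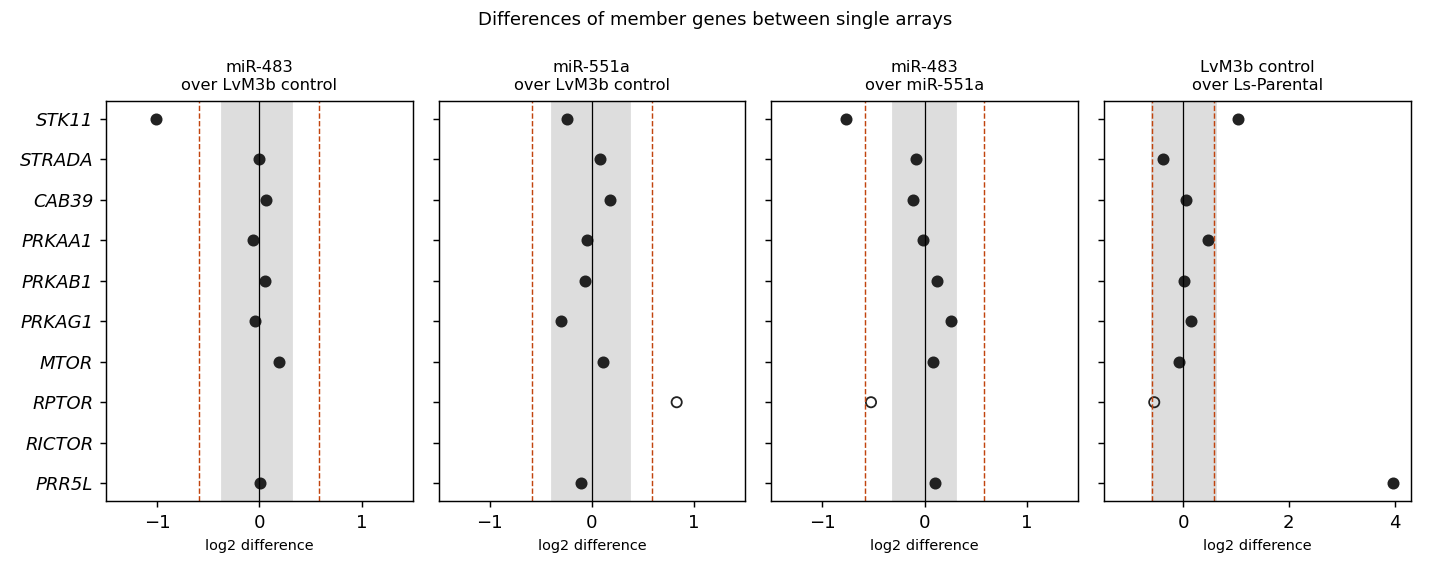
Log2 differences of the 10 genes (brightest probe) in the 4 comparisons of single arrays (filled points detected on both arrays, open on 1; dashed lines mark 1.5-fold; the grey band holds the middle 90% of genes detected on both arrays). STK11 at -1.01 lies outside the band for miR-483 over the control, PRR5L at 3.96 for the LvM3b control over Ls-Parental, and no point is drawn where a gene was detected on neither array.

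Counted over the members, a gene was measured when its brightest probe was detected on at least 1 of the 2 arrays, and set against all genes measured the same way at 1.5-fold. For miR-483 over the control, 1 of 8 measured members was lower, STK11, against 1.58% of 9673 genes, and 0 were higher, against 1.7%. STK11 was also past 2-fold, as were 0.31% of genes on the lower side. The other 7 differed by -0.06 to 0.19, and the members' median was 0.00 beside 0.01 over all genes. STK11 was in the set because of this difference, so the count reads nothing about the set.

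For miR-551a over the control, 0 of 9 measured members were lower, against 2.18% of 9619 genes, and 1 was higher, RPTOR, against 2.03%. RPTOR was not detected on the control array at the limit used (detection p 0.03689). The median was -0.05, beside 0.01 over all genes, and the other 8 members differed by -0.30 to 0.17. The miR-483 and miR-551a comparisons share the control array.

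For miR-483 over miR-551a, 1 of 9 measured members was lower, STK11, against 1.33% of 9753 genes, and 0 were higher, against 1.62%. The median was -0.01, beside 0.00 over all genes. It uses the miR-483 array on which STK11 was chosen, so this count too reads nothing about the set.

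For the LvM3b control over Ls-Parental, 2 of 9 measured members were higher, STK11 and PRR5L, against 7.24% of 9817 genes. Both were also past 2-fold, as were 3.07% of genes. None of the members was lower by 1.5-fold (0 of 9, against 7.57%), with STRADA at -0.39. RPTOR, detected in Ls-Parental and not in the control, had no resolved difference once the control's detection limit was used. The median was 0.05, beside -0.01 over all genes, and both leading members belong to the readout that chose the set.

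The wider pathway was read from 7 lists of 81 genes, 76 of which had a probe. At 1.5-fold, 1 of 62 measured genes was lower and 2 were higher for miR-483 over the control. For miR-551a over the control, 2 of 59 were lower and 2 higher. For the LvM3b control over Ls-Parental, 3 of 61 were lower and 1 was higher. For miR-483 over miR-551a, 1 of 62 was lower and 3 were higher, namely ACACB (0.74), DDIT4 (1.23) and WDR24 (0.95). The background shares are those given above for the same comparisons, and no test of a list was made. With the other settings tried, a 2-fold threshold included, the counts lower and higher were 0 to 1 and 0 to 2 for miR-483 over the control, and 1 to 3 and 0 to 2 for miR-551a over the control. They were 0 to 2 and 1 to 3 for miR-483 over miR-551a, and 1 to 4 and 0 to 3 for the LvM3b control over Ls-Parental.

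**Figure D4:**
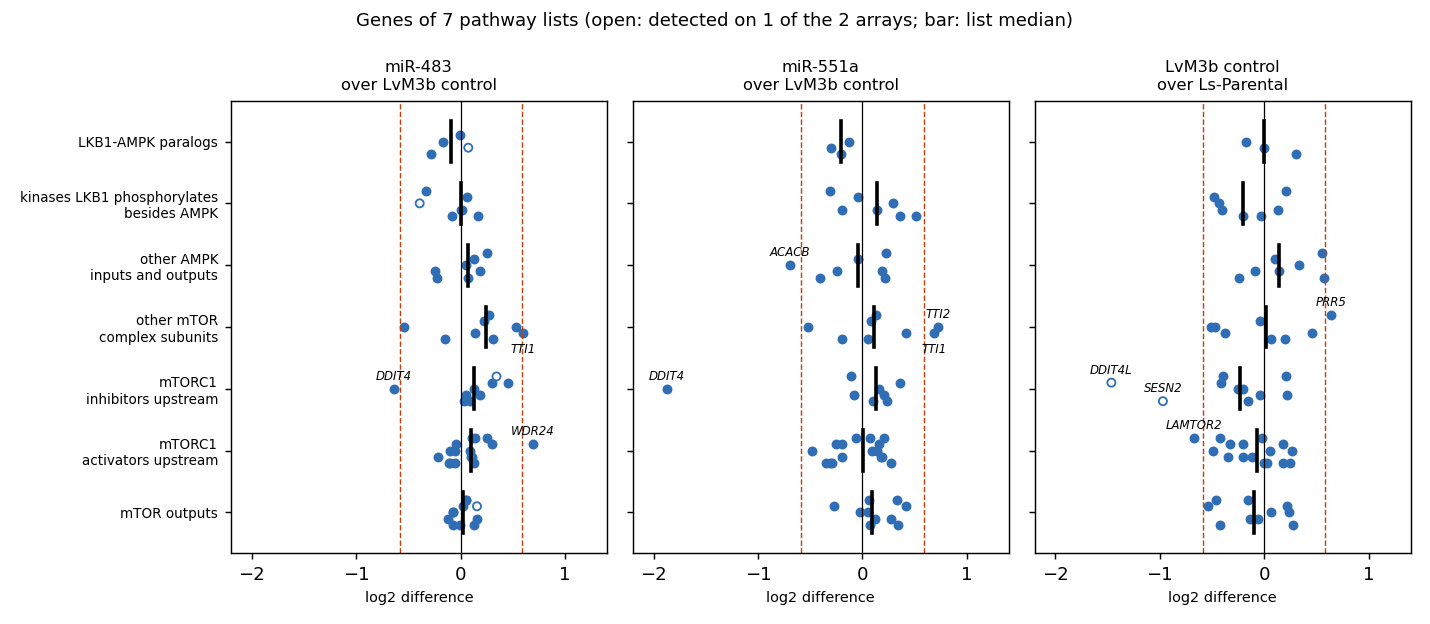
Log2 differences of the measured genes of 7 lists around LKB1, AMPK and mTOR in 3 comparisons of single arrays (points are genes, open where detected on 1 of the 2 arrays; black bars are list medians; dashed lines mark 1.5-fold and genes past it are named). DDIT4 lies at -0.64 for miR-483 over the control and at -1.87 for miR-551a over the control.

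Among mTORC1 inhibitors, 1 of 9 measured genes was lower with miR-483 and 1 of 8 with miR-551a, DDIT4 in both cases. DDIT4, also called REDD1, is induced by stress and acts through the TSC complex to restrain mTORC1. Its deposited signals were 5492.3 with miR-483, 2164.4 with miR-551a, 8724.8 in the LvM3b control and 8274.8 in Ls-Parental. Both microRNA arrays were below both other arrays. The list's median was 0.13 with each microRNA, beside 0.01 over all genes. In the LvM3b control over Ls-Parental, 2 of 10 were lower, both not detected in the control. They were SESN2, a leucine-sensing inhibitor of mTORC1, and DDIT4L, a relative of DDIT4. SESN2 was at least 1.79-fold lower against the control's detection limit after background correction, but differed by -0.54 without that correction and by -0.50 with the authors' scaled values, both within 1.5-fold. DDIT4L was at least 1.13-fold lower.

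The other mTOR complex subunits had medians of 0.25 for miR-483 over the control, 0.11 for miR-551a over the control and 0.01 for the LvM3b control over Ls-Parental, with 8 of 8 measured. TTI1 and TTI2 form with TELO2 the co-chaperone that stabilises mTOR and related kinases. TTI1 had deposited signals of 358.4 with miR-483, 343.4 with miR-551a, 272.8 in the LvM3b control and 289 in Ls-Parental. TTI2 had 627.9 with miR-483, 641.5 with miR-551a, 472.2 in the LvM3b control and 543.4 in Ls-Parental. For both genes the LvM3b control array was the dimmest of the 4.

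TTI1 differed from the control by 0.59 with miR-483 and 0.68 with miR-551a. TTI2 differed by 0.53 and 0.72 in the same comparisons. Without background correction the TTI1 values were 0.43 and 0.49, within 1.5-fold. PRR5 was the gene of this list higher in the LvM3b control than in Ls-Parental, as given above. DEPTOR, an inhibitory subunit of both mTOR complexes, differed in that comparison by -0.47 by its brightest probe and by -1.13 by its second detected probe, and is named for that disagreement after its values were seen.

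Among mTORC1 activators, WDR24, a subunit of the GATOR2 complex that relays amino acid supply, was higher with miR-483 (1 of 16 measured, 0 lower). Its deposited signals were 498.3 with miR-483, 272.4 with miR-551a, 349 in the LvM3b control and 279.5 in Ls-Parental. The miR-483 array was above all others. It was 0.69 above the control, 0.54 without background correction, and 0.95 above miR-551a. No gene of the list passed 1.5-fold with miR-551a (0 lower and 0 higher of 16), with a list median of 0.00 beside 0.01 over all genes. In that comparison LAMTOR5, the brightest gene of the list, differed by 0.10 and RHEB, the GTPase that activates mTORC1, by -0.35. LAMTOR2, a subunit of the Ragulator complex on lysosomes, was lower in the LvM3b control than in Ls-Parental (1 of 16), by -0.67, or -0.46 with the authors' scaled values.

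Among the other AMPK inputs and outputs, 1 of 7 was lower with miR-551a and 0 were with miR-483. It was ACACB, the mitochondrial acetyl-CoA carboxylase that AMPK phosphorylates and inhibits. ACACB had deposited signals of 263.5 with miR-483, 174.1 with miR-551a, 263 in the LvM3b control and 205.1 in Ls-Parental. It was lowest with miR-551a, -0.69 from the control, or -0.42 without background correction. Its relative ACACA, the cytosolic enzyme, differed by 0.19 with each microRNA.

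The LKB1 and AMPK paralogs, the other LKB1 substrate kinases and the mTOR outputs had 0 genes past 1.5-fold by their brightest probes in the comparisons with the control and with Ls-Parental. NUAK2, an LKB1 substrate kinase, differed by -0.04 by its brightest probe for the LvM3b control over Ls-Parental and by -1.01 by its second detected probe, with deposited signals of 202.7 in the LvM3b control and 281 in Ls-Parental. It is named here because its probes disagreed, as seen in its values. PRKAG2, the gamma 2 subunit of AMPK, differed from the control by -0.01 with miR-483 and -0.13 with miR-551a by its brightest probe. Its second detected probe differed by 0.18 and 0.40, with the opposite sign. PRKAA2 and PRKAG3, genes for the other catalytic and a muscle gamma subunit, were not detected on any array. SNRK, a kinase that LKB1 phosphorylates, differed by 0.00 and -0.19 by its brightest probe, and by 0.14 and 0.25 by its second. RPS6, the ribosomal protein phosphorylated downstream of mTORC1, differed by -0.07 and -0.02, and AKT1, the mTORC2 substrate, by -0.07 and 0.05. In the direct comparison of the microRNAs, SIK1, an LKB1 substrate kinase not detected with miR-483, had a signal with miR-483 lower by at least 1.47-fold than that with miR-551a after background correction, and differed by -0.34 without it and by -0.33 with the authors' scaled values.

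The genes whose 4-array pattern was nearest to that of PRR5L, by Euclidean distance of centred log2 levels among 8888 genes detected on all 4 arrays, were H19 (distance 0.16), NRCAM (0.45) and ASB4 (0.49). H19 is an imprinted long non-coding RNA gene and NRCAM a cell adhesion molecule gene. H19 had levels of 13.80 with miR-483, 13.82 with miR-551a, 13.76 in the LvM3b control and 9.74 in Ls-Parental. Nearest to STK11 were TTC14 (0.30), ORAI3 (0.34), a subunit of store-operated calcium channels, and PDE9A (0.36), a cyclic GMP phosphodiesterase. TTC14 had levels of 8.97 with miR-483, 9.63 with miR-551a, 9.86 in the LvM3b control and 9.20 in Ls-Parental. With 4 single arrays such likeness describes these cultures and no more. The search was made with the main setting only, and whether the same genes are nearest with other settings was not tested. For the LvM3b control over Ls-Parental, PRR5L itself ranged from 2.97 to 3.97 across settings and STK11 from 0.64 to 1.04.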

How the data were processed

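RNA of 4 cultures was measured on 1 Illumina bead array each, and groups followed the sample titles. Per the file headers, every array has 1 signal column and 1 Detection column. The deposited signal is an un-normalized linear probe intensity, and the deposited Detection score rises with brightness, so the detection p was taken as 1 minus the score. A second deposited table holds the same intensity times 1 factor per array, 1 to 1.11, found from the values. The software behind both tables is not given in these sources.

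limma 3.58.1 in R 4.3.3 computed background correction from the detection p-values (neqc, offset 16), quantile normalization and log2 levels. Probes were named by the platform annotation, updated by gene number through RefSeq (GRCh38.p14): 27578 had 1 gene (27541 matched), 13 several and 21212 none listed. Each gene took the values of the probe with its highest mean level, and was detected at a detection p under 0.01. A gene not detected on 1 of the 2 arrays was given a bound against the higher of the lowest detected level there and its own level.

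Comparisons were differences of single arrays with no test, counted at 1.5-fold beside all measured genes. The members and lists were chosen with earlier results of these data known. Text names all members, list genes past 1.5-fold or otherwise up to 2 bright ones, and for members spanning at least 1 log2 unit the 3 genes nearest in pattern. The steps were tested on simulated data, in which only probes well above background were changed. Whether changes in dim probes, such as those of STK11 and RPTOR, are recovered was not tested.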

Additional observations from a re-analysis of the deposited data

How the results depend on the processing

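No paired analysis was possible because each group had 1 array. Alternatives were no background correction, an offset of 50, the authors' scaled values, median scaling, a detection p under 0.05, no detection filter, the mean of detected probes, a 2-fold threshold, and bounds for genes not detected on 1 array. For the list genes they were added after seeing the data. Over the members measured in each comparison, 270 gene values stayed on their side of 1.5-fold and 10 did not, and no value past 1.5-fold changed sign. RICTOR was measured in no comparison and RPTOR not for miR-483 over the control, so these are not in that count. For miR-551a over the control, the count of members higher was 0, against 1, without background correction, with an offset of 50, with the authors' scaled values, at 2-fold and with bounds. RPTOR, the gene counted, was 1.78-fold higher, under 2-fold, and was not detected in the control. The cause of its loss under the first 3 settings was not tested. For miR-483 over miR-551a, the count lower was 0, against 1, without background correction, with the authors' scaled values and at 2-fold, as STK11 came to -0.45 in the first and second of these. For the LvM3b control over Ls-Parental, the count lower was 1, against 0, with median scaling (RPTOR, -0.59). The cause was not tested. The count higher in the same comparison moved as well, as PRKAA1 joined STK11 and PRR5L past 1.5-fold. Settings with this result included the mean of detected probes (0.86) and the authors' scaled values (1.54-fold). PRR5L ranged from 2.97 to 3.97 there, STK11 from 0.64 to 1.04, and STK11 for miR-483 over the control from -1.01 to -0.62.

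Over all genes, lower and higher counts at 1.5-fold moved with the setting: 38 to 451 and 14 to 368 (main 153 and 164) for miR-483 over the control, 72 to 536 and 27 to 402 (main 210 and 195) for miR-551a over the control, 14 to 318 and 20 to 390 (main 130 and 158) for miR-483 over miR-551a, and 273 to 1006 and 439 to 1102 (main 743 and 711) for the LvM3b control over Ls-Parental. In that last comparison the authors' scaled values moved the median of all genes from -0.01 to 0.10, with 273 lower and 649 higher, and median scaling gave 0.10, with 631 and 915. Median scaling gave 127 lower and 210 higher for miR-483 over the control, and 94 and 220 for miR-483 over miR-551a. Low signal over background limits STK11, RPTOR and RICTOR, and PRR5L in Ls-Parental.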
